A study of Canis lupus familiaris with 6 samples.

Results

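The genes described here are 39 of the 12851 genes (0.303%) in a table of normalized counts. The cells were of the MDCK type II line, an epithelial line derived from dog kidney. The genes were scarcely detected in wild-type cells and readily detected in cells that had lost E-cadherin. The genes were chosen by these same normalized counts: a gene was taken when its mean over the knockout libraries was at least 50 normalized counts, its mean over the wild-type libraries was at most 15, and the lowest knockout library lay above the highest wild-type library. In all, 47 genes met these conditions, and 8 of them (JAM3, LCN2, LBP, CXCL8, TNFRSF1B, DTX4, COL23A1 and AHRR) were left out by name. Of the 39, 37 carry a gene symbol and 2 have an Ensembl dog identifier alone.

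Poly-A RNA was read in 6 libraries. The 3 knockout libraries (KO) came from MDCK type II cells labelled as an E-cadherin loss of function, and the 3 wild-type libraries (WT) from MDCK type II cells labelled as control. No other treatment is given for either group. Left unstated in the labels are the number of KO clones, the way the gene was disrupted, and whether replicate libraries were grown as separate cultures. They give both confluency and 70 to 80% confluency as the density at harvest. Each library held 18281549 to 19386796 normalized counts, a value of 1 corresponding to about 1 read. Libraries of a group correlated with each other at a Pearson r of 0.987 to 0.991 across genes, and libraries of different groups at 0.934 to 0.940. CDH1, which encodes E-cadherin, was at 1115, 1120.4 and 1237 normalized counts in KO libraries, against 38542, 39643 and 39370 in WT libraries.

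E-cadherin is the calcium-dependent adhesion receptor that holds epithelial cells together at adherens junctions, where catenins tie it to the actin cytoskeleton. A differentiated epithelial cell keeps many genes of other tissues silent through DNA methylation, Polycomb proteins and repressive histone marks, and transcribes others only on a stimulus, as it does the genes of the acute-phase response. Among the 39 genes are some best known from neurons, leukocytes, motile cilia, connective tissue and inflammation, beside general regulators of the cytoskeleton.

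Because the KO and WT values chose these genes, their differences are given as a description, with no test. Levels are normalized counts, which are not divided by transcript length, so they are compared between groups and not between genes. A log2 fold change is the fitted difference of log2(normalized count + 1), KO over WT, with its standard error (SE); the added 1 makes it understate the change of genes near 0. KO means ran from 50.02 to 1361 normalized counts with a median of 70.5, and WT means from 0.644 to 14.7 with a median of 9.16. The log2 fold changes ran from 1.82 to 7.42, with a median of 3.39 against -0.01 over all 12349 genes tested. On the linear scale the KO mean was at least 30 times the WT mean for 6 of the 39, and under 10 times for 17, which are low in WT rather than absent from it. WT libraries held 0 counts rarely: 36 of the 39 genes had a value above 0 in every WT library. All 39 passed the filter on low values and all 39 passed the test applied to every gene (limma, Benjamini-Hochberg adjusted p under 0.05), against 23.6% of all tested genes called higher; the rule fixes that count. Every KO library lay above every WT library for 27.8% of tested genes and below every WT library for 28.6%. In bulk RNA, more cells that express a gene and more RNA per cell cannot be told apart.

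**Figure D1:**
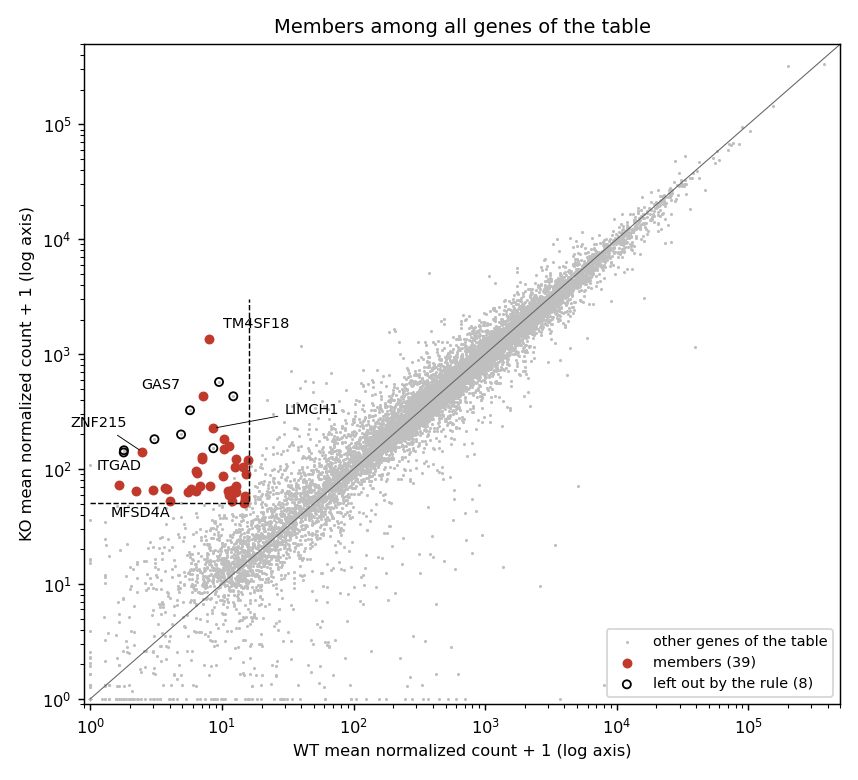
Mean normalized count + 1 in KO (vertical) against WT (horizontal), both on log axes, for every gene of the table. Members are red, the 8 genes left out by name are open circles, the dashed lines are the limits of 50 in KO and 15 in WT, and the grey diagonal marks equal levels; TM4SF18 stands highest among the members at 1361 in KO and 6.96 in WT.

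The limits cut through a continuous range. Just inside the WT limit lay MACROH2A2, with a WT mean of 14.7, and ASAP3, with 13.98. Just outside it lay NEURL2, with a KO mean of 60.6 and a WT mean of 15.04, and PRMT6, with a KO mean of 110.4 and a WT mean of 15.2. Between WT means of 15 and 20, 26 further genes met the other conditions. Just inside the KO limit were CHRNA3, with a KO mean of 50.02, and DACH1, with 51.4, and just outside it were SLC36A4, with 49.6, and SP5, with 48.6. A further 2 genes, neither with a symbol, met both limits on the means and failed because their libraries overlapped. In the opposite direction, with KO and WT exchanged, the same limits held for 76 genes.

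Proteins of the cell surface and of adhesion made up 5 of the 39, with log2 fold changes from 2.39 to 7.42. TM4SF18 (ENSCAFG00845023913), a member of the L6 family of membrane-spanning proteins, which resemble tetraspanins in topology, was at 1449.8, 1331 and 1302 normalized counts in KO libraries, against 6.83, 8.03 and 6.02 in WT libraries. Its log2 fold change was 7.42 (SE 0.13), and the lowest KO library was 162 times the highest WT library, the widest separation of the 39. TM4SF18 alone made up 25.4 to 28.2% of the summed counts of all members in the KO libraries. ITGAD (ENSCAFG00845010970), an alpha subunit of the leukocyte integrins, was at 69.2, 60.4 and 85.8 in KO libraries, against 0, 0 and 1.93 in WT libraries (log2 fold change 5.65, SE 0.44). It was the gene with the lowest WT mean, and 2 of its 3 WT libraries were listed at 0. ADAM22, a membrane protein of the metalloprotease family that lacks protease activity and anchors a synaptic ligand, was at 98.0, 105 and 72.6 in KO libraries, against 10.5, 3.02 and 2.92 in WT libraries (4.02, SE 0.38). The synaptic adhesion protein LRFN1 and the leucine-rich repeat adhesion protein AMIGO1, both best known from neurons, were nearer to the limits. LRFN1 averaged 62.2 ± 8.45 in KO and 11.03 ± 2.90 in WT (SD, n = 3 each), and AMIGO1 averaged 58.5 ± 3.25 in KO and 10.4 ± 1.59 in WT.

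Counting the adaptor SHF and the LIM-domain protein LIMD2, regulators of the cytoskeleton and of small GTPases were the largest class, with 8 genes. GAS7 (ENSCAFG00845001655), an F-BAR protein that binds membranes and actin and was named for its expression in growth-arrested cells, was at 431, 417 and 451 in KO libraries, against 8.21, 6.43 and 3.91 in WT libraries (log2 fold change 5.96, SE 0.21). The 3 KO libraries differed from each other by little, with a coefficient of variation of 3.92%. LIMCH1, which promotes the activity of non-muscle myosin, was at 223, 204 and 248 in KO libraries, against 7.37, 6.95 and 8.23 in WT libraries (4.73, SE 0.18). ADD3, an adducin that caps actin filaments and joins them to spectrin at the membrane, was at 62.3, 56.8 and 76.2 in KO libraries, against 2.76, 2.14 and 1.04 in WT libraries (4.50, SE 0.33). Both genes had no KO library near the WT range, the lowest KO value being 24.8 times the highest WT value for LIMCH1 and 20.6 times for ADD3.

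LIMD2, a small LIM-domain protein, was at 140.3, 134 and 92.8 in KO libraries, against 6.83, 7.11 and 4.30 in WT libraries (log2 fold change 4.13, SE 0.25). SHF, an adaptor with a Src-homology domain, was at 142, 179.6 and 149.5 in KO libraries, against 8.44, 13.0 and 9.56 in WT libraries (3.82, SE 0.21). WIPF1, which binds and stabilises the actin nucleation factor WASP, was at 53.1, 62.2 and 70.3 in KO libraries, against 2.46, 7.66 and 3.57 in WT libraries (3.60, SE 0.34). DOCK3, a Rac activator of neurons, was at 68.7, 68.4 and 60.4 in KO libraries, against 5.70, 4.41 and 4.29 in WT libraries (3.53, SE 0.25). In each of these 4 genes every WT library lay under every KO library by more than 6 times. The Arf GTPase-activating protein ASAP3 was the exception of the class: at 49.2, 64.0 and 57.4 in KO libraries and 14.8, 21.1 and 6.02 in WT libraries, its lowest KO value was 2.33 times its highest WT value.

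**Figure D2:**
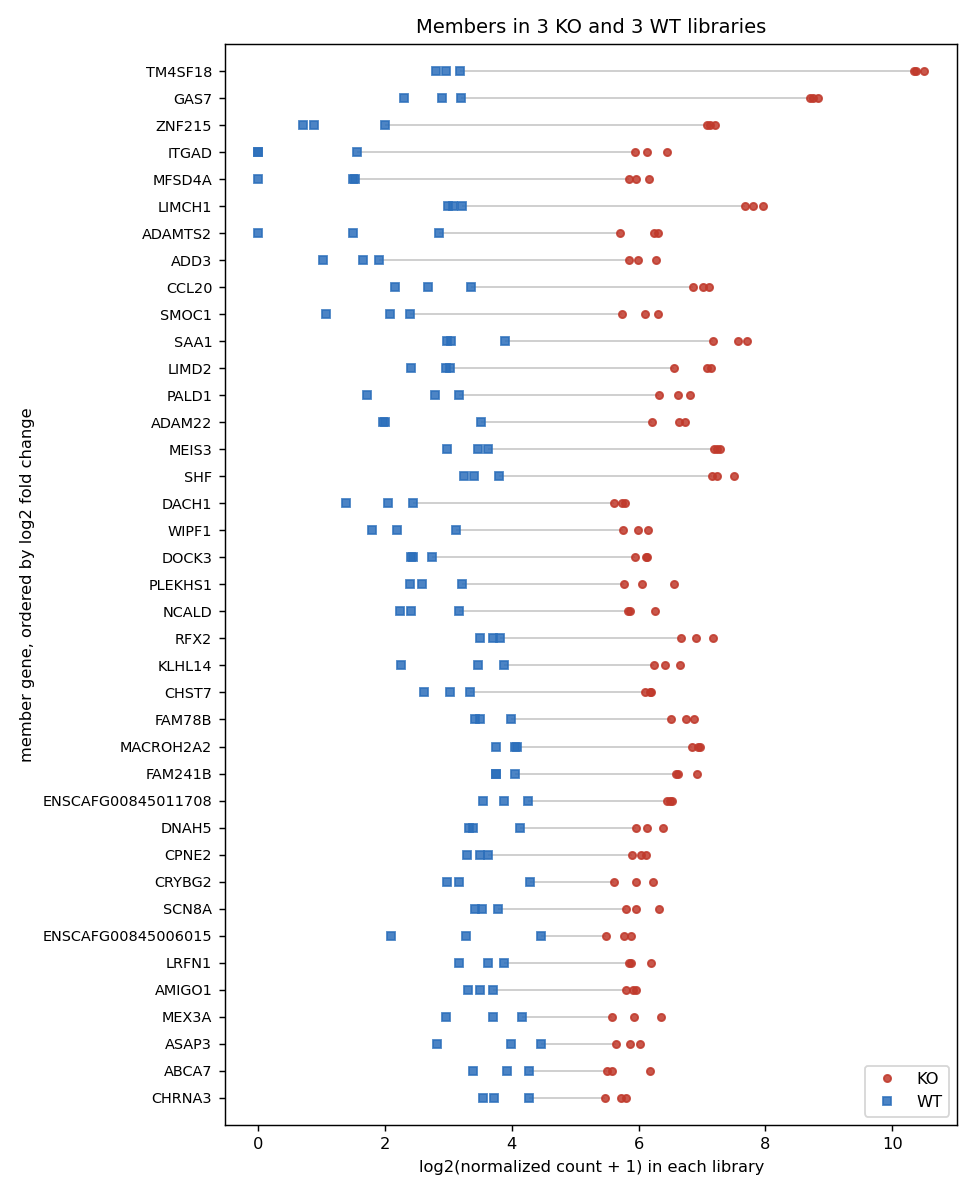
log2(normalized count + 1) of each member (down the page, ordered by log2 fold change) in the 3 KO libraries (red circles) and the 3 WT libraries (blue squares); grey lines join the lowest KO to the highest WT library. The separation narrows from TM4SF18 at the top to ABCA7 and CHRNA3 at the bottom.

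Proteins that bind DNA, chromatin or RNA made up 6 of the 39. ZNF215 (ENSCAFG00845009841), a zinc finger protein whose human gene is imprinted in some tissues, was at 139, 147 and 134 in KO libraries, against 0.840, 2.99 and 0.633 in WT libraries (log2 fold change 5.94, SE 0.34). The homeobox factor MEIS3 was at 149, 146 and 154 in KO libraries, against 10.1, 6.84 and 11.3 in WT libraries (3.88, SE 0.21). For both genes the 3 KO libraries lay close together and far above WT. RFX2, a factor that drives genes of cilia, was at 100.2, 119 and 143 in KO libraries, against 10.3, 13.1 and 11.99 in WT libraries (3.24, SE 0.20). DACH1, a corepressor of the Dachshund family, was at 52.1, 48.1 and 54.1 in KO libraries, against 3.13, 1.62 and 4.44 in WT libraries (3.75, SE 0.33). MACROH2A2, a histone variant enriched in silent chromatin, averaged 119.8 ± 5.30 in KO and 14.7 ± 1.87 in WT. MACROH2A2 has the highest WT mean of the 39, and its groups do not overlap because the rule requires that of every member. MEX3A, an RNA-binding protein of stem and progenitor cells, averaged 62.3 ± 17.0 in KO and 11.9 ± 5.01 in WT, with a coefficient of variation of 27.2% among KO libraries. Among these factors ZNF215, MEIS3, DACH1 and MACROH2A2 varied little between KO libraries, by 2.82 to 5.92%.

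Channels, transporters and calcium sensors were 6 genes, most of them nearer to the limits. MFSD4A, a transporter of the major facilitator superfamily, was at 71.0, 56.7 and 61.4 in KO libraries, against 0, 1.88 and 1.83 in WT libraries (log2 fold change 4.99, SE 0.42). NCALD, a neuronal calcium sensor, averaged 62.8 ± 11.05 in KO and 5.33 ± 2.30 in WT. MFSD4A was close to absent from WT, and NCALD lay at a few reads there. The copine CPNE2, which binds membranes in response to calcium, averaged 63.8 ± 4.87 in KO and 10.2 ± 1.27 in WT. The voltage-gated sodium channel gene SCN8A averaged 65.0 ± 12.7 in KO and 10.99 ± 1.57 in WT. The lipid transporter ABCA7 averaged 54.3 ± 15.2 in KO and 13.9 ± 4.39 in WT. These 3 genes, with WT means above 10, were low in WT rather than absent. CHRNA3, a nicotinic acetylcholine receptor subunit of autonomic ganglia, had the smallest difference of all members: it was at 51.7, 43.3 and 55.01 in KO libraries, against 10.7, 18.3 and 12.1 in WT libraries (1.82, SE 0.25).

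Of 3 genes of the extracellular matrix and its enzymes, ADAMTS2, the protease that trims the amino end of fibrillar procollagens, was at 51.2, 74.4 and 78.4 in KO libraries, against 0, 1.82 and 6.19 in WT libraries. Its log2 fold change of 4.64 (SE 0.60) had the largest error among the 39, and was 3.91 without WT replicate 1 and 5.34 without WT replicate 3. SMOC1, a secreted calcium-binding matrix protein that antagonises bone morphogenetic proteins, was at 52.3, 67.7 and 78.3 in KO libraries, against 4.25, 1.10 and 3.20 in WT libraries (4.20, SE 0.36). For both genes KO replicate 1 was the lowest KO library. CHST7, a sulfotransferase of chondroitin chains, averaged 70.5 ± 2.40 in KO and 7.12 ± 1.98 in WT. Both secreted inflammatory proteins of the set were well clear of WT. CCL20, the chemokine that draws cells bearing its receptor to mucosal epithelia, was at 129, 137 and 115 in KO libraries, against 9.18, 5.38 and 3.47 in WT libraries (4.27, SE 0.28). SAA1, an acute-phase apolipoprotein, was at 189, 143 and 207 in KO libraries, against 6.88, 7.25 and 13.8 in WT libraries (4.18, SE 0.25).

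The remaining genes belong to no class above. DNAH5, a dynein heavy chain of the outer arms of motile cilia, averaged 70.8 ± 11.1 in KO and 11.7 ± 4.23 in WT. PALD1, the phosphatase-like protein paladin, was at 78.6, 111 and 97.8 in KO libraries, against 2.27, 5.89 and 7.96 in WT libraries (log2 fold change 4.03, SE 0.34). Every KO library of PALD1 was at least 9.88 times its highest WT library. PLEKHS1, a protein with a pleckstrin homology domain, was at 92.9, 53.3 and 65.1 in KO libraries, against 4.96, 8.28 and 4.27 in WT libraries (3.39, SE 0.30), and had the largest variation between KO libraries, 28.8%. The kelch protein KLHL14, the crystallin-domain protein CRYBG2, FAM78B and FAM241B had KO means of 60.9 to 104 and log2 fold changes of 2.45 to 3.24. The 2 genes with no symbol were unlike each other. ENSCAFG00845011708 varied least of all members between KO libraries, at 89.3, 86.3 and 91.0, against 13.7, 10.6 and 18.04 in WT libraries. ENSCAFG00845006015 was at 43.6, 53.5 and 57.7 in KO libraries, against 21.1, 3.27 and 8.70 in WT libraries, the narrowest separation of the set at 2.07 times; its log2 fold change of 2.43 was 3.02 without WT replicate 1 and 1.84 without WT replicate 2.

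The sum over members differed little between the libraries of a group. The members' values summed to 5148, 4961 and 5129.8 normalized counts in KO libraries and to 324, 335 and 298 in WT libraries. Without TM4SF18 the sums were 3699, 3630.2 and 3828 in KO libraries and 317, 327 and 292 in WT libraries. KO replicate 3 held the highest KO value for 20 of the 39 genes and KO replicate 2 the lowest for 19, and each of the 3 KO libraries was the highest for at least 9 genes. Variation between KO libraries had a median of 13.6% and ranged from 2.67 to 28.8%. In 15 of the 39 genes the lowest KO library was at least 10 times the highest WT library, and in no member was it under 2 times.

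Which genes lie beside the members was read from the RefSeq annotation of the dog assembly UU_Cfam_GSD_1.0. All 37 members with a symbol had a place, on 23 chromosomes, with at most 3 members on any of them. Their nearest tested neighbours that were not members numbered 72, of which 19 were higher in KO (26.4%, against 23.6% of all tested genes), 13 were lower (18.1%, against 24.5%) and 40 did not pass. Their median log2 fold change was -0.0044, beside -0.01 over all tested genes. TM4SF18 lies next to its family member TM4SF1, which was at 1820.0 ± 0.519 in KO and 1798 ± 69.6 in WT (log2 fold change 0.02, SE 0.05, adjusted p = 0.785 by limma). Neither nearest tested neighbour of GAS7 passed the test. The third to the fifth gene on one side of it, NTN1, PIK3R5 and MYH10, were higher by 1.17, 1.90 and 1.13 on the log2 scale. On the other side MAP2K4 and ELAC2 were called lower, with log2 fold changes of -0.15 and -0.18. These genes were named after their values were seen. Over 5 neighbours a side of all members, 23.3% were higher, against 23.6% of all tested genes.

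Among the 72 neighbours, 4 were called with a rise of 2-fold or more (5.34% of all tested genes were) and 2 with a fall of that size (3.33%). CHRNA5, a receptor subunit that assembles with CHRNA3, was at 82.4, 96.2 and 109 in KO libraries, against 23.9, 32.8 and 19.8 in WT libraries (log2 fold change 1.89, SE 0.21, adjusted p = 5.13e-06 by limma). CHRNA3 and CHRNA5 overlap in the reference annotation, and the labels do not say whether counting used the strand, so reads of one may be counted in the other. PID1 beside CCL20 rose by 1.22 on the log2 scale, TCEA3 beside ASAP3 by 1.06 and MAPRE2 beside KLHL14 by 1.01. CTNND2, delta-catenin, fell next to DNAH5: it was at 0, 0 and 0.839 in KO libraries, against 63.0, 59.2 and 52.7 in WT libraries. CHN1, a Rac GTPase-activating protein beside WIPF1, fell by 1.18 on the log2 scale. Since the rule makes every member rise, these pairs show only which neighbours rose and which fell.

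Few members lay close together. FAM241B and MACROH2A2 had no tested gene between them, and PALD1 followed after 4 tested genes, of which TYSND1, a peroxisomal protease next to MACROH2A2, was lower in KO (log2 fold change -0.53, adjusted p = 2.40e-05 by limma). CHRNA3 and LIMCH1 were separated by 3 tested genes, and ADD3 and PLEKHS1 by 14. Between ADD3 and PLEKHS1 lay HABP2, a secreted serine protease, at 109.9 ± 10.2 in KO and 18.8 ± 4.52 in WT. ADAMTS2 was separated by 1 tested gene from COL23A1, a membrane collagen that met the same limits and was left out by name, and N4BP3, further along, was 1.98 higher on the log2 scale. HABP2 and N4BP3 were chosen after their values were seen.

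**Figure D3:**
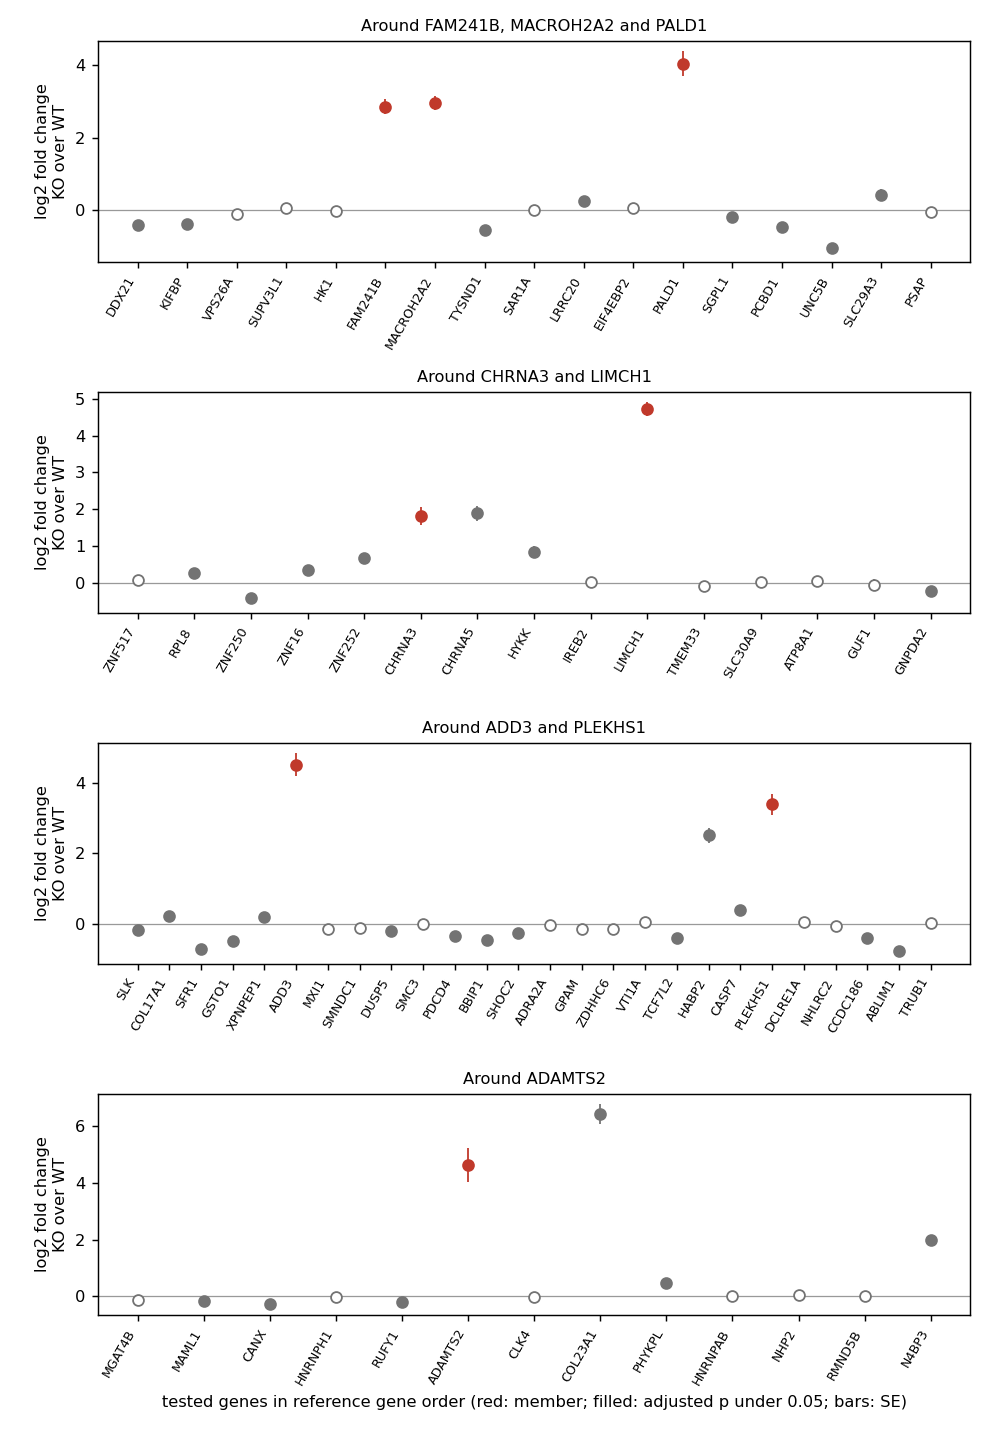
log2 fold change (KO over WT, vertical) of tested genes in the gene order of the reference (horizontal, evenly spaced) around members that lie close together. Members are red, bars are SE, and filled points passed limma at an adjusted p of 0.05; FAM241B and MACROH2A2 stand side by side at 2.86 and 2.95 with TYSND1 next to them at -0.53, and CHRNA3 and CHRNA5 stand together at 1.82 and 1.89.

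Relatives of the members, for some of them a whole family, were compared next, from a list of 143 drawn up once the members were known. Of 64 that could be tested, 23 were higher in KO (35.9%, against 23.6% of all tested genes), 11 were lower (17.2%, against 24.5%) and 30 did not pass, with a median log2 fold change of 0.14. Some relatives were at like levels in both groups or lower in KO. MACROH2A1, the ubiquitous counterpart of MACROH2A2, was at 1132 ± 81.7 in KO and 1154 ± 64.2 in WT (adjusted p = 0.746 by limma). Among adducins, ADD2 was lower, at 572 ± 55.4 in KO and 1092 ± 70.3 in WT, while ADD3 was higher. LMO7, the relative of LIMCH1 and an adaptor of adherens junctions, was at 849 ± 69.3 in KO and 3025 ± 88.9 in WT. ZNF214, the neighbour and relative of ZNF215, averaged 44.6 in KO and 31.5 in WT and did not pass (adjusted p = 0.0596 by limma).

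Other relatives rose. CHST1, like CHST7 a sulfotransferase, was at 557 ± 52.5 in KO and 113 ± 14.4 in WT (log2 fold change 2.29). ADAM11, related to ADAM22, was at 33.2 ± 3.78 in KO and 7.88 ± 3.70 in WT, and ADAMTS3, related to ADAMTS2, at 60.03 ± 12.9 in KO and 19.3 ± 3.28 in WT. The synaptic adhesion genes LRFN3 and LRFN4 were higher by 0.73 and 1.13 on the log2 scale, and the calcium sensor HPCAL4 by 1.94. MEIS2 was higher by 0.96, and the Rac activator DOCK6 by 0.93. ABCA8, from the family of ABCA7, went the other way: it was listed at 0 in every KO library, against 26.2, 26.5 and 28.3 in WT libraries. The F-BAR relatives of GAS7 are part of the count of relatives above. Of these 15 tested F-BAR proteins, 5 rose (33.3%, against 23.6% of all tested genes), 1 fell (6.67%, against 24.5%) and 9 did not pass, with a median of 0.14. GMIP, a GTPase-activating protein, had the largest rise among them (579.9 ± 18.1 in KO and 279 ± 17.2 in WT), followed by FNBP1 at 0.55 on the log2 scale. TRIP10 and ARHGAP29 rose by 0.37 and 0.27 on that scale, and PACSIN2 fell by 0.20. Limma without its trend and robust options called 3 of the F-BAR genes higher in place of 5.

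**Figure D4:**
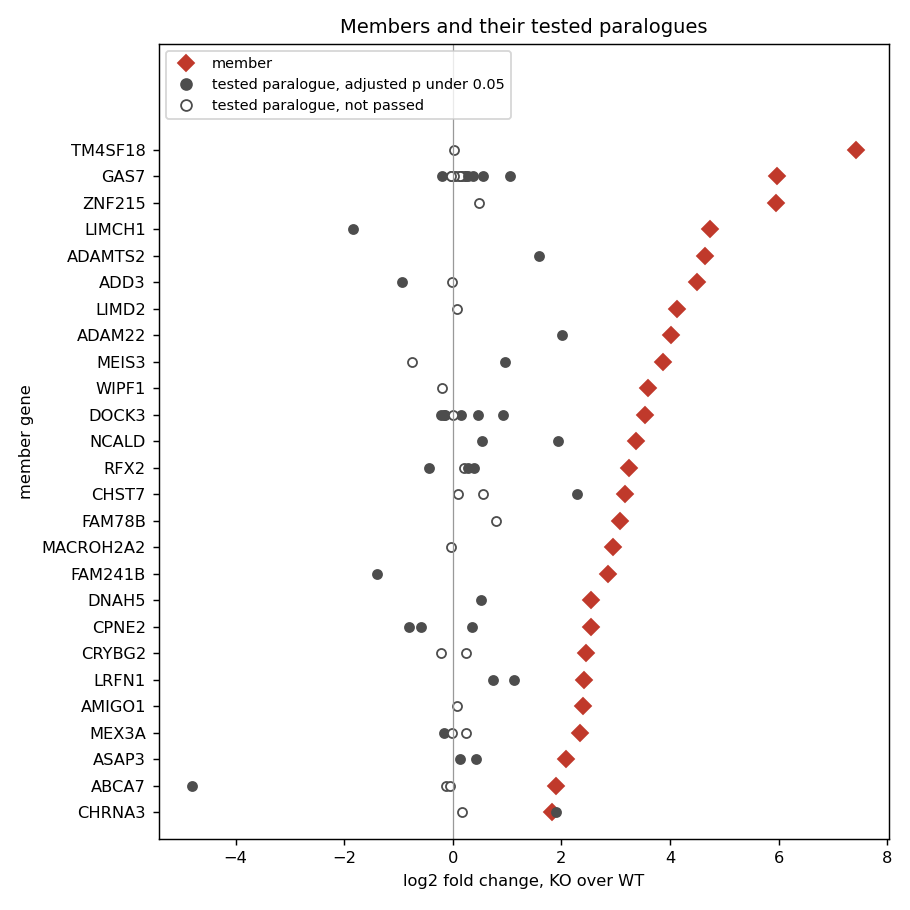
log2 fold change (KO over WT, horizontal) of each member (red diamonds) and of its tested relatives (circles, filled where the adjusted p was under 0.05). Members stand to the right because their difference chose them, and CHRNA5 lies beside CHRNA3 at 1.89; the point at the far left is ABCA8, which is listed at 0 in KO, so that its fitted value depends on the added 1.

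Transcripts of the silencing machinery and of its opponents were read as further lists. Of 31 tested genes of DNA methylation and Polycomb repression, 10 rose (32.3%, against 23.6% of all tested genes), 5 fell (16.1%, against 24.5%) and 16 did not pass, with a median of 0.07. The list holds writers and readers of silencing marks and also enzymes that remove them. TET3, KDM6A and KDM6B, 3 of its 5 falls, were of the second kind. The other falls were of the DNA methyltransferase DNMT1 (4075 in KO and 4686 in WT, log2 fold change -0.20) and the reader MBD1 (-0.41). The de novo methyltransferase DNMT3B was at 104, 93.8 and 115 in KO libraries, against 15.01, 34.4 and 30.1 in WT libraries (log2 fold change 2.01, SE 0.26, adjusted p = 4.05e-05 by limma). The Polycomb subunit PCGF3 rose by 0.90 on the log2 scale, whereas the demethylases of the Polycomb mark KDM6A and KDM6B fell by 0.89 and 0.44. KDM6A is also the neighbour of the member CHST7. Of 17 tested genes that methylate histone H3 at lysine 9 or serve KRAB zinc finger repressors, 2 rose (11.8%, against 23.6% of all tested genes), 3 fell (17.6%, against 24.5%) and 12 did not pass, with a median of -0.01; without WT replicate 1 the number higher was 4. Among them the corepressor TRIM28 rose by 0.23 and SUV39H1 by 0.23 on the log2 scale, and the reader CBX3 fell by 0.33 and ATF7IP by 0.32.

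Of 35 germline genes, silent in most somatic cells, 5 could be tested. PIWIL4 was at 24.6 ± 0.823 in KO and 5.96 ± 0.815 in WT, and MEIOB at 17.2 ± 1.83 in KO and 6.80 ± 2.24 in WT. STK31 was at 152 ± 8.39 in KO and 107 ± 3.97 in WT. These 3 were called higher (60%, against 23.6% of all tested genes) and 1 lower (20%, against 24.5%). The WT means of PIWIL4 and MEIOB were under 10, so both passed the filter on low values through their KO values. TEX14 was lower (log2 fold change -0.60, adjusted p = 0.0194 by limma), a call lost without KO replicate 2 or 3 or WT replicate 1 or 3. SPO11 did not pass, at 1690.3 in KO and 1805 in WT, and the 7 germline genes in the table summed to 1914 to 1963 in KO libraries and 1968 to 2023 in WT libraries. Of 229 tested zinc finger genes other than ZNF215, 50 rose (21.8%, against 23.6% of all tested genes), 22 fell (9.61%, against 24.5%) and 157 did not pass, with a median of 0.08. ZNF853 rose by 1.69 and ZNF335 by 0.87 on the log2 scale. ZNF304 was at 1.97, 4.52 and 4.82 in KO libraries, against 95.8, 88.8 and 78.6 in WT libraries, and ZNF25 fell by 1.10.

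Several members are best known from other tissues, so markers of those tissues were read beside them. Lists with as few tested genes as these do not describe a tissue. Of 22 neuronal markers, 1 was in the table and tested: MAP2 was lower, at 252 in KO and 557 in WT. Over all tested genes 24.5% were lower. The members SCN8A, CHRNA3, LRFN1, AMIGO1, NCALD, DOCK3 and ADAM22 are not on that list, and the rule chose them for being higher. Of 18 immune markers, 4 were tested and 4 were called higher, where 23.6% of all tested genes were. CD14 averaged 48.2 in KO and 20.4 in WT, and CORO1A 14.8 in KO and 5.58 in WT. CORO1A passed the filter on low values only through its KO values. CD74 averaged 46594 in KO and 41818 in WT, so that the immune list summed to 43517 to 49760 in KO libraries and 39821 to 43216 in WT libraries. Without KO replicate 2 or KO replicate 3, 1 immune marker was called, and without WT replicate 3, 2 were. Without either of those KO libraries CORO1A falls under the filter, so part of that drop is a change in the genes tested. Of 17 endothelial markers, 1 was tested, FLT1, and it was lower, where 24.5% of all tested genes were. Of 18 fibroblast and muscle markers, 4 were tested. Of these, 2 rose (50%, against 23.6% of all tested genes) and 1 fell (25%, against 24.5%). Their list summed to 939 to 1019 in KO libraries and 1079 to 1151 in WT libraries. The smooth muscle actin ACTA2 averaged 57.2 in KO and 16.8 in WT, and the receptor PDGFRA 34.8 in KO and 18.8 in WT. S100A4 was lower, at 256 in KO and 444 in WT, and the smooth muscle myosin MYH11, at 633 in KO and 639.8 in WT, did not pass. Of 16 proximal tubule markers, 4 were tested. CUBN, MIOX and FBP1 fell (75%, against 24.5% of all tested genes) and SLC22A12 rose (25%, against 23.6%). The list summed to 141 to 158 in KO libraries and 830.1 to 950 in WT libraries. Without WT replicate 1, 2 or 3, 2 of the tubule markers were called higher in place of 1. HNF4A, at 16.3, 11.4 and 18.3 in KO libraries, against 3.34, 2.47 and 1.68 in WT libraries, was under the filter with all 6 libraries. Leaving out any WT library lifts HNF4A over the filter through its KO values, so the added call reflects a change in the genes tested. The part of other cell types in the members' levels was not tested.

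The authors' deposited table also gives a mean of normalized counts for each gene, and it was not the mean of these 6 libraries. The 6-library mean was at most 1.5 times the deposited mean, as for a mean over 9 libraries of which 3 hold no reads of the gene. On that reading each gene has an implied mean in 3 further libraries, whose cells are unknown and which are not analysed here. The implied mean was at most 15 normalized counts for 16 of the 39 members (41.0%, against 6.82% of all genes in the table). It was between 15 and 50 for 11 members and at least 50 for 12. All genes of the table are an unlike comparison, since every member was chosen for a WT mean of at most 15. For TM4SF18, GAS7, CHST7, MACROH2A2 and ENSCAFG00845006015 the implied mean was 0. For 9 members it lay above the KO mean, by most for WIPF1, with 439 in the further libraries, 61.9 in KO and 4.56 in WT. LIMD2 had 336, CCL20 288 and MEIS3 285 in the further libraries. Of 952 other genes with a WT mean of at most 15, 19.4% had an implied mean of at least 50, beside 30.8% of the members; the members had also to reach 50 in KO, and these shares were not tested against each other.

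**Figure D5:**
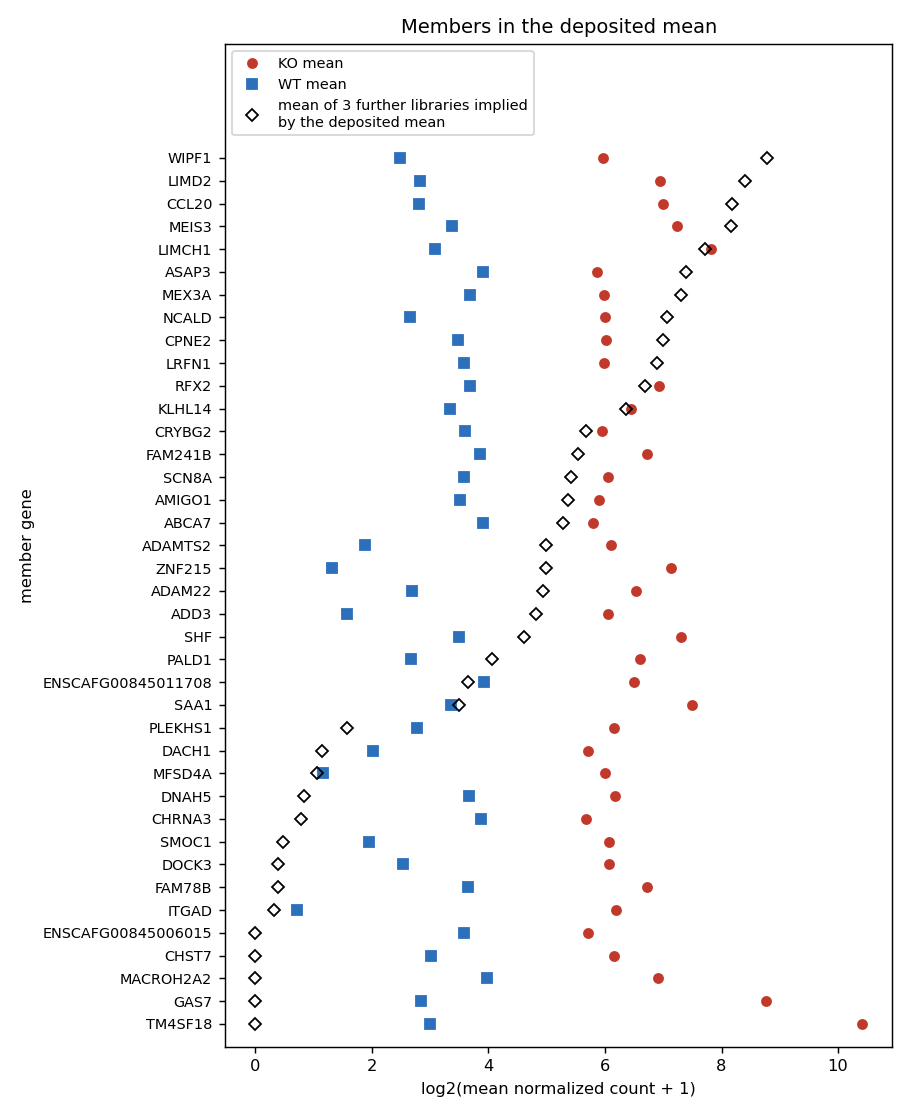
log2(mean normalized count + 1) of each member in KO (red circles), in WT (blue squares) and in the 3 further libraries implied by the deposited mean (open diamonds), ordered by the implied mean. TM4SF18 and GAS7, at the bottom, have an implied mean of 0, and WIPF1, LIMD2, CCL20 and MEIS3, at the top, have one above their KO mean.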

How the data were processed

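Per the labels, poly-A RNA (250 ng of total RNA) from KO and WT cells was made into stranded libraries and read as pairs of 75 bases. The submitters' processing notes name STAR 2.5.2b, featureCounts, FastQC, Picard 2.8.1 and DESeq2 1.14.1. Neither the genome build nor the strand setting of counting was given in these sources. The authors deposited normalized counts for 12851 genes, a signal that is not whole: per library, 72.2 to 81.0% of the values below 12 were within 0.1 of whole steps, so reads were not recovered and no count test was run. Per the file headers, the authors deposited a mean, a log2 fold change with its error, a score (their ratio) and raw and adjusted p-values from their own fit.

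Here limma 3.58.1 (R 4.3.3, trend and robust, statmod 1.5.0) was run two-sided on log2(value + 1). It covered the 12349 genes averaging 10 or more across all 6 libraries, at a Benjamini-Hochberg adjusted p of 0.05. This step was tested on simulated data, with changes planted only in genes of a higher mean than many members have. P-values rest on the variation among replicate libraries, and this may be technical. Replicates differed by more than sampling noise (chi-square per gene 3.23 to 12.9). That chi-square used approximate reads, each library's values divided by its fitted step, because reads were not recovered. Of 10003 tested symbols, 9786 (97.8%) were placed by the RefSeq gene table of UU_Cfam_GSD_1.0. Values in every library are given for the 3 marker genes, the 20 members with the largest difference and the 10 with the largest KO mean, and for other members near a limit. Members, lists, relatives and roles were chosen with earlier results of these data known. Named neighbours were those called with at least a 2-fold change, and named list genes were up to 4 with the smallest adjusted p; others were chosen after their values were seen. Alternatives were rescaling, other filters and pseudocounts, limma without trend and robust, a minimum fold of 1.5, a replicate block, leaving out each library and the authors' calls. Promoter and protein sequences were not used here, and the values of 1 immune marker are not reported here.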

Additional observations from a re-analysis of the deposited data

Results flagged for a closer look

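The deposited mean covers more libraries than the 6 compared. For 23 of the 39 members the mean it implies for 3 further libraries lay above the highest WT library. That bar is low because the rule chose members for low WT values, and no share over other genes is given beside this count. The implied means of these 23 were 439 normalized counts for WIPF1, 336 for LIMD2, 288 for CCL20, 285 for MEIS3 and 209 for LIMCH1. They were 166 for ASAP3, 156 for MEX3A, 133 for NCALD, 126 for CPNE2, 118 for LRFN1, 102 for RFX2 and 80.7 for KLHL14. Lower values were found for CRYBG2 (49.9), FAM241B (45.4), SCN8A (41.6), AMIGO1 (40.1), ABCA7 (37.7), ADAMTS2 (30.6), ZNF215 (30.6), ADAM22 (29.8), ADD3 (27.2), SHF (23.6) and PALD1 (15.7). Which cells these libraries came from is not known, and the spread among them cannot be read from a mean.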

How the results depend on the processing

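The number of members moved with the limits, to 22 genes with a WT mean of at most 10, 65 with at most 20, and 13 with a KO mean of at least 100. It was 54 with a KO mean of at least 40, 41 after rescaling by median ratio and 47 before the 8 named genes were left out. Leaving out 1 library in turn gave 38 to 45 genes, of which 37 to 39 were among the 39. The median log2 difference of the members was 2.82 at a pseudocount of 5, and 3.28 to 3.50 when 1 library was left out. With a minimum fold of 1.5, 688 genes were higher in KO and 446 lower, and 4 neighbours of the members were higher and 3 lower; with 5 neighbours a side, 80 of 343 were higher and 95 lower. Without single libraries, genes higher in KO numbered 2493 to 2918 and genes lower in KO 2559 to 2998, and neighbours of the members higher in KO numbered 17 to 21 and lower 11 to 15. At the minimum fold of 1.5, 8 relatives of the members were higher and 3 lower, and 8 zinc finger genes were higher and 3 lower. Limma without trend and robust, other filters, a pseudocount of 0.5, rescaling and the authors' calls kept these gene and neighbour counts within 1.5 times. With a replicate block, genes higher in KO were 3000 and genes lower in KO 3118 (6118 calls, 5850 shared with the 5941 without it); numbers did not pair the samples, with correlations of same-numbered deviations of 0.05, -0.03 and -0.04. Among named single genes, 859 alternatives kept direction and call, 45 lost the call, 1 gained it (ZNF214) and 3 changed sign: the TM4SF1 log2 fold change ran from -0.013 to 0.042 when 1 library was left out, and the MACROH2A1 log2 fold change from -0.088 to 0.011. Neither gene passed the test under any alternative run. The call of CD74 was lost without KO replicate 2 or 3 or WT replicate 2 or by limma without trend and robust. The promoter alternative was not run. Values near 0 rest on few reads, so fold changes of members with WT means under about 2 depend most on the added 1.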
